A study of Mus musculus with 51 samples.

Results

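The arrays described here are the 12 at the spike amounts 0.05 and 0.1 pmol, of 51 in the series, and the comparison is between the arrays numbered 1 to 3 and those numbered 4 to 6 at both amounts. The rule used the sample titles alone: replicates 1-3 of both amounts form a set of 6 arrays, replicates 4-6 form another set of 6, and amount is kept as a block. All 12 are spotted arrays with 2 colours. Both channels held RNA of CRL1606, a mouse hybridoma made by fusing BALB/c spleen cells with the myeloma P3-X63-Ag8, grown in suspension in serum-free medium. On every array of both sets, 100 genes were spiked into channel 1 and 100 other genes into channel 2, each gene at 0.05 pmol or each at 0.1 pmol. No group carries a treatment, and the single cell line appears in every channel. The labels do not say what the numbers 1 to 6 stand for. They do not tie replicates to separate cultures either, so the p-values below speak only of variation among arrays, and that variation could be technical.

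On a 2-colour array each spot reports the ratio of the signals of both channels. With the same cell RNA in both, a transcript of the cell should give a log2 ratio near 0 after centring, and a transcript spiked into a single channel should give a ratio away from 0, with opposite signs for the 2 channels. A ratio holds no level of expression, so the hybridoma's identity could not be checked against marker genes here. Which channel is the numerator is not given either, and ratios are therefore called positive or negative only. The spiked genes are not named either. Their place was taken by candidates: the 100 most positive and the 100 most negative features on the 3 arrays at 2 pmol, which belong to neither set. The last positive candidate had a mean of 3.99 there and the first feature left out 3.89. On the negative side these values were -2.44 and -2.43, so some spiked genes may lie outside the candidates and some candidates may be unspiked. A feature is a probe printed as a pair of spots, whose values were averaged. A difference is always replicates 4-6 minus replicates 1-3, in log2 units.

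The first question was how repeatable the ratios were within each set. The 2 spots of a probe were close to each other in replicates 1-3 and far less so in replicates 4-6. At 0.05 pmol, Pearson's r between paired spots was 0.958, 0.925 and 0.939 in replicates 1, 2 and 3, and 0.497, 0.455 and 0.691 in replicates 4, 5 and 6. At 0.1 pmol it was 0.955, 0.953 and 0.938, then 0.402, 0.455 and 0.520. No array of one set reached the range of the other. The mean r was 0.945 ± 0.013 (SD, n = 6) against 0.504 ± 0.100 (SD, n = 6), a difference of -0.44 (exact two-sided permutation test within amounts, p = 0.005, adjusted p = 0.007 over 7 array measures). This p is the smallest that the 400 arrangements can give. The median gap within a pair ran from 0.074 to 0.105 log2 units in replicates 1-3 and from 0.38 to 0.585 in replicates 4-6 (exact permutation p = 0.005, adjusted p = 0.007). Of the 39 arrays at other amounts, 2 had a paired r at or below the highest of low-spike replicates 4-6, and their median was 0.887.

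The loss of agreement was spread over the whole print. Within single print blocks, the array's median r over the 48 blocks ran from 0.941 to 0.967 in replicates 1-3 and from 0.337 to 0.682 in replicates 4-6. The spots of an array, controls included, were also set against the 2 pmol mean at their own print position and at positions shifted by rows or columns. At their own position r was 0.552 to 0.659 in replicates 1-3 and 0.325 to 0.465 in replicates 4-6, and on each of the 12 arrays this was the highest r. A shift by columns gave at most 0.049 and 0.036. A shift by rows within a column gave 0.162 to 0.474 in replicates 1-3 and 0.010 to 0.325 in replicates 4-6. Paired spots lie in neighbouring rows, so a shift by 1 row sets some spots against the other spot of the same probe. A shift by 2 rows never does, and it gave 0.162 to 0.256 in replicates 1-3 and 0.010 to 0.151 in replicates 4-6. The source of that r was not tested.

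Arrays of both sets were nearly complete. Between 15327 and 16837 of the 16896 spots had a value, and 1 to 16 spots per array stood at the upper limit. Missing spots ran from 0.349% to 1.89% in replicates 1-3 and from 1.14% to 9.29% in replicates 4-6, so the sets overlapped (exact permutation p = 0.010, adjusted p = 0.010). Leaving out 0.1 pmol replicate 1, 2 or 3 raised that p to 0.090, 0.085 and 0.090. Before centring, the array medians ran from -1.09 to -0.69 in replicates 1-3 and from -2.67 to -1.54 in replicates 4-6, without overlap (exact permutation p = 0.005, adjusted p = 0.007). The spread of the centred ratios, as the median absolute deviation of an array, was 0.317 ± 0.076 (SD, n = 6) and 0.489 ± 0.090 (SD, n = 6), and the ranges overlapped (exact permutation p = 0.010, adjusted p = 0.010).

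The candidates came out weaker in replicates 4-6. Their separation was computed for each array by subtracting the negative candidates' median from the positive candidates' median and dividing by 2. At 0.05 pmol, replicates 1, 2 and 3 gave 3.31, 3.23 and 3.18, and replicates 4, 5 and 6 gave 2.27, 1.20 and 2.37. At 0.1 pmol the first set gave 3.27, 3.18 and 3.53, and the other gave 1.91, 1.61 and 1.87. The sets did not overlap, and the difference was -1.41 log2 units (exact permutation p = 0.005, adjusted p = 0.007). The array with the least separation, 0.05 pmol replicate 5, was also among those with a low paired r (0.455). The correlation of an array with the 2 pmol mean over all features was 0.569 to 0.733 in replicates 1-3 and 0.395 to 0.544 in replicates 4-6 (exact permutation p = 0.005, adjusted p = 0.007). The sign of the candidates survived better than their size: 191 to 196 of them had their 2 pmol sign on each array of replicates 1-3, and 181 to 197 on each array of replicates 4-6.

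**Figure D1:**
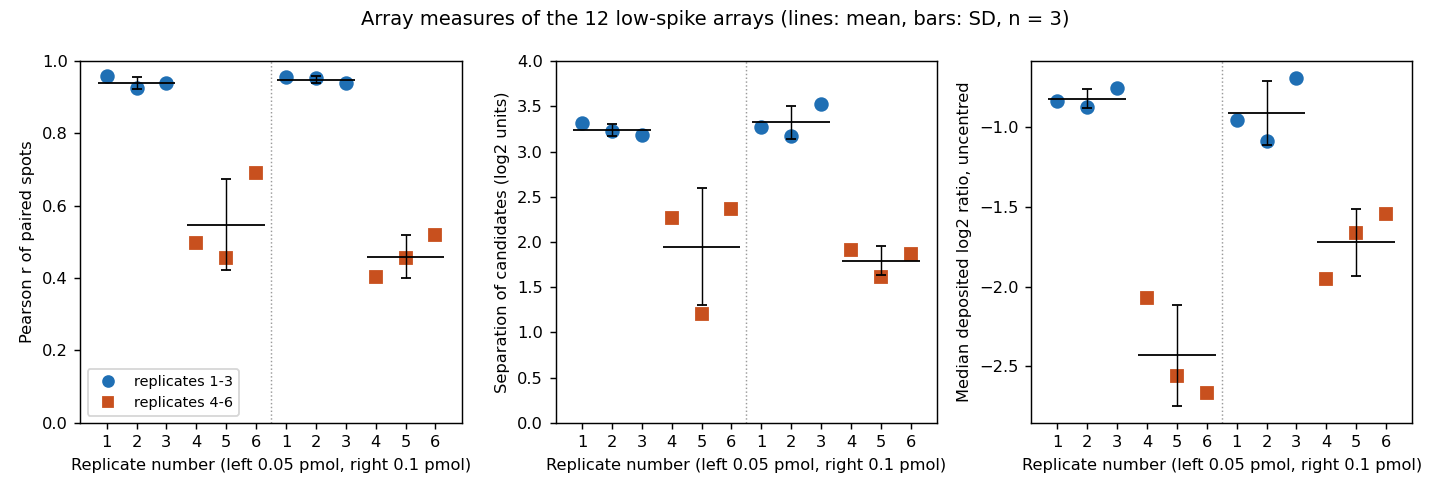
Each point is an array: circles are replicates 1-3, squares are replicates 4-6, with 0.05 pmol left and 0.1 pmol right of the dotted line. The panels plot Pearson's r of paired spots, the candidate separation in log2 units and the median deposited log2 ratio before centring, with the mean and SD of 3 arrays; in each panel the sets do not overlap.

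Across all features, 881 of 7906 differed between the sets (limma, Benjamini-Hochberg adjusted p under 0.05), which is 11.1% of those tested. The difference was positive for 424 (5.36%) and negative for 457 (5.78%), and 2226 features had an unadjusted p under 0.05. All 881 had the same sign at both amounts, which selection on the difference pooled over both amounts makes likely in advance. Of them, 594 differed by at least 1 log2 unit and 94 by at least 2. The median over all features was -0.07. Without centring, which moves the median to -1.28, the split was 65 positive and 6803 negative, so each direction here is relative to the array median. Single arrays mattered for the count. It was 510 without 0.05 pmol replicate 3, 566 without 0.05 pmol replicate 2, and 513 without 0.1 pmol replicate 1 and also without 0.1 pmol replicate 3.

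At 0.05 pmol alone, 540 features (6.83%) differed between the sets, and at 0.1 pmol 489 (6.19%). Of these, 144 were called at both amounts, 26.7% of the first list and 29.4% of the second, and 143 of the 144 had the same sign. Leaving out 0.05 pmol replicates 1, 2 or 3 left 183, 115 and 125 calls at 0.05 pmol, and without 0.1 pmol replicates 1 or 3 there were 299 and 312. At 0.1 pmol the count was 200, 172, 181 and 325 without 0.1 pmol replicates 1, 2, 3 and 4, and 820 without 0.05 pmol replicate 6. Fits to only the 6 arrays of an amount gave 84 calls at 0.05 pmol and 528 at 0.1 pmol. The interaction of set and amount reached adjusted p under 0.05 in 0 features (0%) with limma, while 1254 had an unadjusted p under 0.05. The doubling of the spike itself gave 0 calls (0%) between 0.1 and 0.05 pmol over both sets, with 853 features at an unadjusted p under 0.05. Within replicates 1-3 it gave 0 calls (0%) with 495 features at that unadjusted p, and within replicates 4-6 68 calls (0.860%) with 1743. The fit took a single spread per feature for both sets, although the median SD was 0.242 in replicates 1-3 and 0.516 in replicates 4-6. It is therefore too strict in replicates 1-3 and too lenient in replicates 4-6, and the counts of the sets cannot be compared. With array weights in the limma fit, the comparison of amounts gave 252 calls.

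A feature varied more from array to array in replicates 4-6. The median SD between replicates of one amount was 0.242 log2 units in replicates 1-3 and 0.516 in replicates 4-6, and 82.8% of features had the higher SD in replicates 4-6. Outside the candidates, arrays of replicates 1-3 correlated with each other with a median r of 0.706 over 15 pairs (0.302 to 0.830). Those of replicates 4-6 did so with a median of 0.254 over 15 pairs (0.174 to 0.418). Between the sets the median was 0.193 over 36 pairs (-0.039 to 0.318). Over the 200 candidates alone the medians were 0.980, 0.902 and 0.889 in the same order.

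Of the 200 candidates, 97 differed between the sets, against 11.1% of all features. In 83 of them the ratio of replicates 4-6 had shifted against the candidate's 2 pmol sign, and in 14 along it. For candidates, these shifts are called nearer 0 and farther from 0 below. The 100 positive candidates had a median set mean of 3.40 in replicates 1-3 and 2.05 in replicates 4-6, with 36 called lower and 8 called higher. The 100 negative candidates moved from -3.15 to -1.56, with 47 called toward positive values and 6 toward negative ones. The median difference was -0.74 for the positive and 1.01 for the negative candidates. Most stayed off 0: 96 positive and 84 negative candidates were off 0 with their 2 pmol sign in replicates 1-3, and 97 and 88 in replicates 4-6. These counts stand beside 20.0% and 30.0% of all features off 0 in the same sets. The test took a single spread per feature for both sets, although replicates 4-6 varied more, so it was too lenient there. The median set mean over all features was also -0.01 in replicates 1-3 and -0.14 in replicates 4-6. Counts off 0 can therefore not be compared between the sets. Over the candidates, the set means of replicates 4-6 followed those of replicates 1-3 with r = 0.921 and a slope of 0.67, as a description over features that share arrays. That value spans the gap between both signs. Within the positive candidates r was 0.686 and the slope 0.58, and within the negative ones 0.716 and 0.53. Over the 7706 other features r was 0.335.

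**Figure D2:**
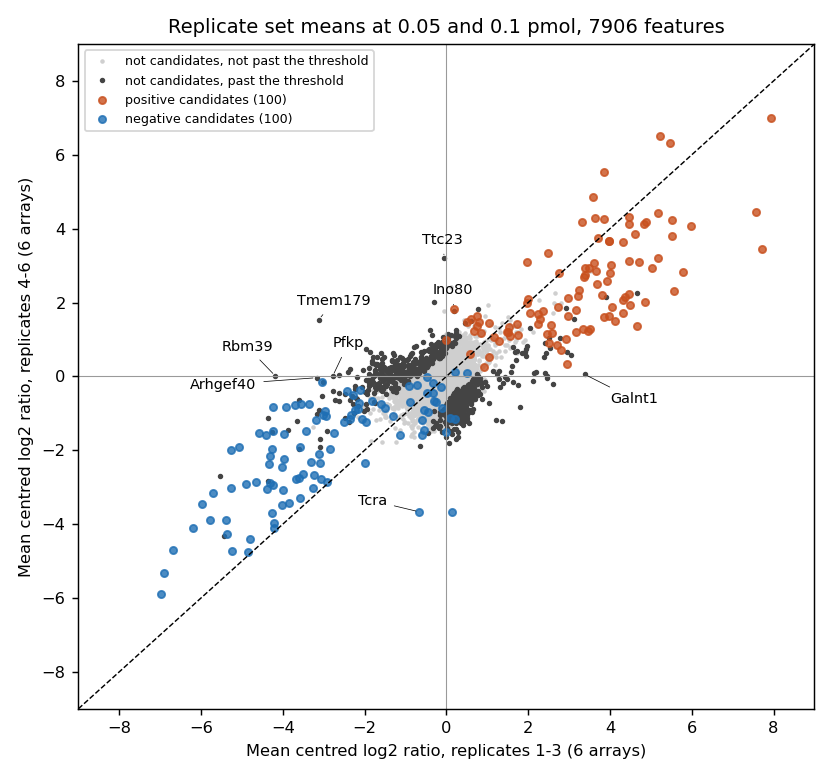
Each point is 1 of 7906 features, with its mean centred log2 ratio in replicates 1-3 on the x axis and in replicates 4-6 on the y axis; the dashed line marks equal values. Positive (orange) and negative (blue) candidates have slopes of 0.58 and 0.53 within each colour and lie mostly below the line at high positive and mostly above it at low negative values, while dark points outside the candidates include features off 0 in 1 set and near 0 in the other.

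Among the positive candidates, Mreg, which encodes melanoregulin, a protein of melanosome and lysosome transport, ran from 5.17 to 6.22 (median 5.86) in replicates 1-3. In replicates 4-6 it ran from 1.91 to 3.69 (median 2.85). The sets did not overlap, and the difference was -2.95 (SE 0.25, adjusted p = 6.95e-06). Elf2, an ETS-family transcription factor, went from 3.43 to 4.97 (median 3.94) in replicates 1-3 and from 1.22 to 1.96 (median 1.41) in replicates 4-6. Again each array of replicates 4-6 lay below all of replicates 1-3, and the difference was -2.63 (SE 0.24, adjusted p = 9.97e-06). Cdkn2b, an inhibitor of cyclin-dependent kinases, had 3.72 to 5.42 (median 4.70) and then 0.29 to 2.24 (median 1.53). Its difference was -3.29 (SE 0.32, adjusted p = 1.36e-05). Cdan1, which encodes codanin, a partner of histone chaperones, was close to 0 in replicates 4-6 (-0.58 to 1.55, median -0.03) after 2.10 to 3.96 (median 2.75). A second feature of Cdan1, no candidate, was called in the opposite direction, with set means of -0.61 and 0.45 and a difference of 1.06 (adjusted p = 0.0128). In Nkain2, which interacts with a sodium pump subunit, and Zfp292, a zinc finger protein, the sets overlapped. Zfp292 read 5.14, 2.77 and 7.70 in 0.05 pmol replicates 4, 5 and 6, the last of them inside the 6.99 to 8.32 of replicates 1-3. Nkain2 differed by -3.25 (adjusted p = 0.000873) and Zfp292 by -3.12 (adjusted p = 0.00444). A second feature of Zfp292, no candidate, differed by 0.17 (adjusted p = 0.691). The largest negative difference of any feature was that of an unnamed positive candidate, whose first spot is 8362. It fell from 7.35 to 8.12 (median 7.68) to between 2.06 and 6.23 (median 2.79), by -4.27 (SE 0.53, adjusted p = 0.000133). A second unnamed one, first spot 8280, differed by -2.83 (adjusted p = 6.87e-05).

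Among the negative candidates, Ascc3, a DNA helicase of the activating signal cointegrator complex, ran from -4.32 to -3.16 (median -4.03) in replicates 1-3 and from -1.25 to -0.24 (median -0.90) in replicates 4-6. The sets did not overlap, and the difference was 3.08 (SE 0.23, adjusted p = 3.9e-06), the lowest adjusted p among the named features. A second feature of Ascc3, no candidate, differed by -0.34 (adjusted p = 0.326). Nostrin, which takes part in the trafficking of endothelial nitric oxide synthase, had -5.48 to -4.38 (median -5.17) and then -3.11 to 0.51 (median -2.41), a difference of 3.17 (adjusted p = 0.000364). Dock5, an exchange factor for the small GTPase Rac, had -5.82 to -4.59 (median -5.40) and then -3.31 to 1.31 (median -2.71), a difference of 3.28 (adjusted p = 0.00225). The array that turned positive was 0.05 pmol replicate 5 for both Nostrin (0.51) and Dock5 (1.31), the array with the least candidate separation. An unnamed negative candidate, first spot 16238, differed by 3.41 (SE 0.29, adjusted p = 6.95e-06).

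In other candidates the difference lay near 0. The positive candidate Pcnx3, a pecanex-family membrane protein, ran from 2.41 to 3.18 (median 2.71) in replicates 1-3 and from 1.99 to 3.29 (median 2.86) in replicates 4-6. The negative candidate Iqgap2, an actin-binding scaffold, ran from -4.53 to -3.65 (median -4.37) and from -6.14 to -3.07 (median -3.86). Cbx8, a Polycomb chromodomain protein, ran from -3.60 to -2.51 (median -2.81) and from -3.48 to -1.23 (median -3.28). In all 3 the sets overlapped, and the differences were 0.05, 0.10 and 0.06 (adjusted p from 0.902 to 0.919). The differences of 4930581F22Rik, Fam117b, Traf4 and Pml were 0.03, 0.03, 0.04 and -0.10. Fam117b, the signalling adaptor Traf4 and the nuclear body protein Pml had set means within 1 log2 unit of 0 in both sets, although their 2 pmol means were 4.43, -3.21 and -2.98. A feature of Hk2, the hexokinase that starts glycolysis, was a positive candidate (first spot 9437) with set means of 4.48 and 4.32. Another feature of Hk2 (first spot 15849) was a negative candidate with set means of -2.28 and -0.51, a difference of 1.77 (SE 0.21, adjusted p = 8.22e-05).

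In 14 called candidates the ratio of replicates 4-6 was the farther from 0. Called or not, 24 of the positive and 19 of the negative candidates had shifted along their 2 pmol sign there, and 76 and 81 against it. The clearest was Tcra, the T-cell receptor alpha chain, a gene of T cells. In replicates 1-3 its ratios were -0.97, -1.05 and 0.47 at 0.05 pmol, then -1.09, -0.99 and -0.33 at 0.1 pmol. In replicates 4-6 they were -4.43, -3.86 and -4.48, then -2.88, -3.11 and -3.25. The sets did not overlap, and Tcra had moved away from 0 by -3.01 (SE 0.33, adjusted p = 3.82e-05). Ino80, the ATPase of a chromatin remodeller, is a positive candidate with a 2 pmol mean of 6.24. It read -0.03 to 0.53 (median 0.18) in replicates 1-3, near 0 on all 6 arrays, and 1.34 to 2.66 (median 1.69) in replicates 4-6, a difference of 1.65 (SE 0.24, adjusted p = 0.000443). The 14 had a median size of 0.63 log2 units in replicates 1-3, 1.73 in replicates 4-6 and 5.15 at 2 pmol.

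Outside the candidates, 784 of 7706 features differed, 10.2% of them, 369 positive and 415 negative, and their median over all was -0.07. By the absolute size of their set means, the 784 were divided between 390 nearer 0 and 394 farther from 0 in replicates 4-6. The distances from 0 were not alike in the sets: 77 features outside the candidates had a set mean beyond 2 log2 units in replicates 1-3, 49 of them negative, and 11 in replicates 4-6. Of the 77, 45 were within 1 log2 unit of 0 in replicates 4-6, and 23 were within 1 log2 unit of 0 on the arrays at 2 pmol.

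Rbm39 was the clearest of these. It encodes an RNA-binding protein that works in splicing, and the feature with first spot 10399 read -4.15, -4.07 and -3.55 in 0.05 pmol replicates 1-3 and -4.50, -3.01 and -5.82 in those of 0.1 pmol. In replicates 4-6 it read 0.43, 0.73 and 0.87, then -0.81, -0.44 and -0.72. All 6 arrays of replicates 1-3 were below all of replicates 4-6, by a difference of 4.19 (SE 0.36, adjusted p = 6.95e-06). The 3 other features of Rbm39 stayed within 1 log2 unit of 0 in both sets, with differences of -0.04, -0.49 and -0.98 (adjusted p 0.126 or higher).

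Arhgef40, a guanine nucleotide exchange factor, read -3.58 to -2.27 (median -3.25) in replicates 1-3 and -0.92 to 0.69 (median 0.00) in replicates 4-6, a difference of 3.14 (SE 0.30, adjusted p = 1.09e-05). Ect2, an exchange factor needed for cytokinesis, read -3.36 to -2.22 (median -3.23) and -0.69 to 0.57 (median -0.30), a difference of 2.87 (SE 0.27, adjusted p = 1.09e-05). Neither gene's sets overlapped, and both lay near 0 at 2 pmol (0.35 and -0.44). Tmem179, a transmembrane protein, had the largest positive difference of all, 4.67 (SE 0.50, adjusted p = 4.46e-05). It read -3.92 to -2.35 (median -3.11) in replicates 1-3 and -0.10 to 3.54 (median 1.54) in the 5 arrays of replicates 4-6 that had a value, 0.05 pmol replicate 5 being missing. Tbc1d10a, a GTPase-activating protein for Rab proteins, had overlapping sets, with -6.02 to -2.44 (median -4.37) and -2.55 to -0.33 (median -0.92), a difference of 3.25 (adjusted p = 0.00274). Ttc23, a tetratricopeptide repeat protein, was the reverse case. Its replicates 1-3 ran from -0.30 to 0.39, whereas replicates 4-6 read 0.65, 5.73 and 4.99 at 0.05 pmol. At 0.1 pmol replicates 5 and 6 read 2.66 and 2.54 while replicate 4 was missing, a difference of 3.33 (SE 0.68, adjusted p = 0.00626). The unnamed feature with first spot 8111 differed by 2.96 (adjusted p = 0.00014).

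The negative differences outside the candidates were led by Galnt1, a transferase that adds the first sugar of mucin-type O-glycans. It read 3.27, 2.48 and 3.64 in 0.05 pmol replicates 1-3 and 3.23, 4.45 and 3.21 in those of 0.1 pmol. In replicates 4-6 it read 0.89, -0.29 and -0.74, then 0.25, 0.04 and 0.17, so every array of replicates 1-3 lay above all of replicates 4-6. The difference was -3.33 (SE 0.31, adjusted p = 1.09e-05). Slco2b1, an organic anion transporter, and Usf1, a basic helix-loop-helix transcription factor, went from medians of 2.43 and 2.77 to -0.12 and 0.47. Their differences were -2.52 and -2.47 (adjusted p = 6.87e-05 and 0.000338). At 2 pmol their means were 3.34 and 3.89, below the 3.99 of the last positive candidate. Tcea3, a transcription elongation factor, had a 2 pmol mean of 3.47 and a difference of -2.41 (adjusted p = 0.00831). Tcea3 had overlapping sets because 0.05 pmol replicate 6 read 4.92, within the 4.20 to 5.63 of replicates 1-3. Kif5a, a neuronal kinesin heavy chain, read 0.83 to 2.77 (median 2.47) and then -0.56 to 0.33 (median -0.09), a difference of -2.25 (SE 0.32, adjusted p = 0.000364). Uhrf2, a ubiquitin ligase that reads chromatin marks, changed sign. It read 0.42 to 2.60 (median 0.89) in replicates 1-3 and -2.06 to -0.40 (median -1.13) in replicates 4-6, a difference of -2.39 (SE 0.36, adjusted p = 0.0006), while the other features of Uhrf2 differed by -0.55 and 0.22 (adjusted p = 0.132 and 0.532).

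**Figure D3:**
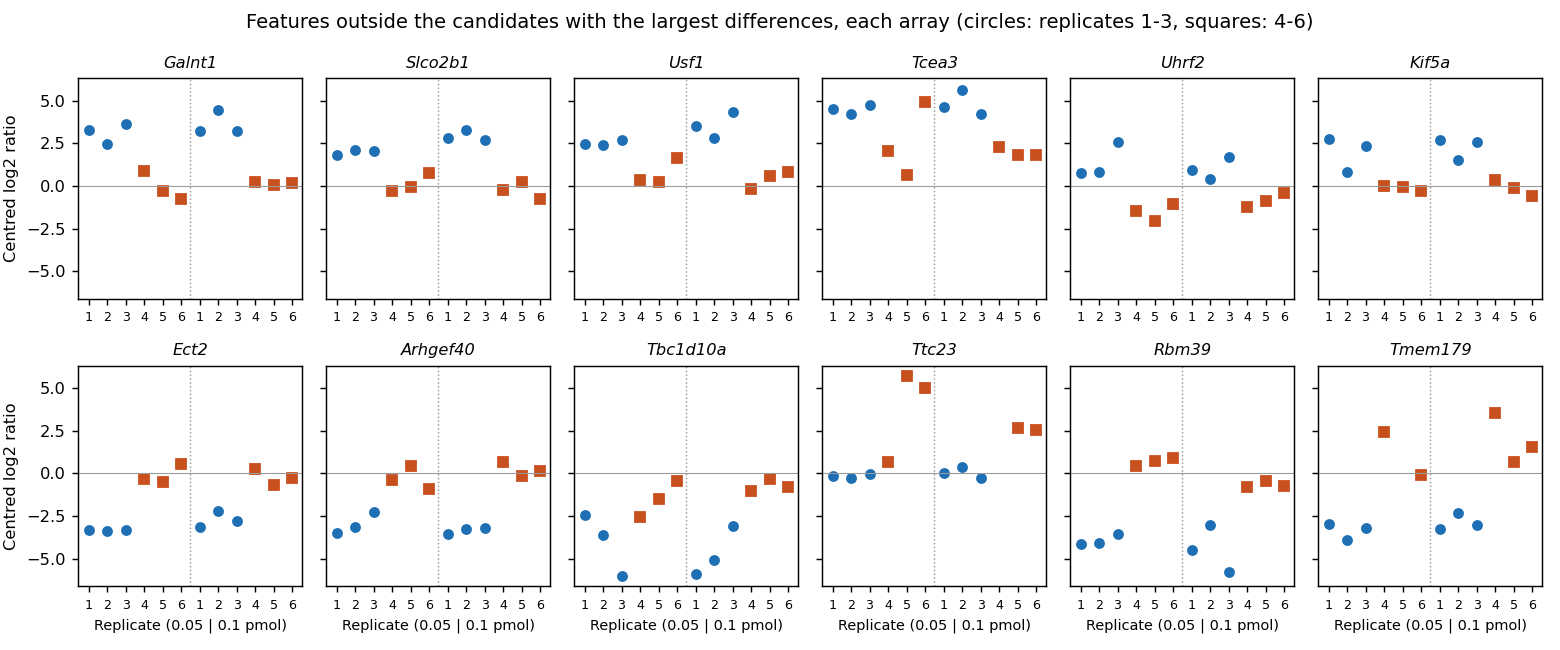
Each panel is a feature outside the candidates and each point its centred log2 ratio on an array, circles for replicates 1-3 and squares for replicates 4-6, with 0.05 pmol left and 0.1 pmol right. Rbm39, Arhgef40 and Ect2 lie below -2 in every array of replicates 1-3 and within 1 of 0 in replicates 4-6; a missing square is an array without a value.

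The same split of numbers exists at 0, 0.25, 0.5 and 0.75 pmol, with 6 arrays each, and a limma fit of those 36 arrays together gave the set difference at each amount. For the low spikes it called 1669 of 7831 features (21.3%). It called 601 of them at 0 pmol (7.67%), 166 at 0.25 pmol (2.12%), 500 at 0.5 pmol (6.38%) and 123 at 0.75 pmol (1.57%). The low-spike difference itself differed from that at 0 pmol in 931 features (11.9%) and from the mean of 0.25, 0.5 and 0.75 pmol in 1485 (19.0%). Of the 881 low-spike calls, 852 could be tested in that fit. At 0.25 pmol 62 of them were called, 59 in the direction opposite to the low spikes and 3 in the same. At 0.5 pmol 153 were called, 136 opposite and 17 the same. At 0 pmol 73 were called, 52 in the same direction and 21 opposite, and at 0.75 pmol 11, 7 and 4 of them.

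Arhgef40, Ect2 and Rbm39 were called in the opposite direction at both 0.25 and 0.5 pmol. Arhgef40 averaged 0.54 ± 0.28 (SD, n = 3) in 0.25 pmol replicates 1-3 and -2.83 ± 1.17 (SD, n = 3) in replicates 4-6, a difference of -3.37 (limma adjusted p = 2.2e-05). At 0.5 pmol it averaged 0.25 ± 0.50 and -3.50 ± 0.54 (SD, n = 3 each), a difference of -3.75 (limma adjusted p = 1.4e-06). So the strongly negative ratios of Arhgef40 belonged to replicates 1-3 at the low spikes and to replicates 4-6 at 0.25 and 0.5 pmol. They were also found at 0.025, 0.15 and 0.2 pmol, where the means of the 3 arrays were -2.89, -3.43 and -3.03, and not at 0.75, 1 and 2 pmol, where all set means lay within 1 log2 unit of 0. Ect2 followed the same order, with differences of -2.44 at 0.25 pmol (limma adjusted p = 0.00027) and -1.59 at 0.5 pmol (limma adjusted p = 0.0068). Rbm39 differed by -2.32 (limma adjusted p = 0.00073) and -2.16 (limma adjusted p = 0.00035) there, and its means at 0.025, 0.15 and 0.2 pmol were -4.54, -3.29 and -3.82.

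Tcra and Ino80 ran the other way round. Tcra averaged -3.85 ± 0.51 (SD, n = 3) in 0.25 pmol replicates 1-3 and -1.06 ± 1.42 (SD, n = 3) in replicates 4-6, and -5.09 ± 0.21 against -0.25 ± 0.17 (SD, n = 3 each) at 0.5 pmol. The differences were 2.79 (limma adjusted p = 0.042) and 4.84 (limma adjusted p = 7.3e-05), opposite in sign to the -3.01 of the low spikes. Its means at 0.025, 0.15 and 0.2 pmol lay at 0.01, -0.35 and -0.34, near those of low-spike replicates 1-3, and at 1 and 2 pmol at -6.49 and -6.21. Ino80 averaged 3.34 and 0.25 in the sets at 0.25 pmol and 3.60 and -0.28 at 0.5 pmol, differences of -3.09 (limma adjusted p = 0.00074) and -3.88 (limma adjusted p = 1.2e-05). Of the 14 candidates called farther from 0 in low-spike replicates 4-6, 6 were called in the opposite direction at 0.25 pmol and 7 at 0.5 pmol, and 0 in the same direction (limma). Of the 22 features named by size, 7 were called at 0.25 pmol and 7 at 0.5 pmol, all in the opposite direction, against 2.12% and 6.38% of features called there. Called or not, 19 of the 22 had the opposite sign at 0.25 pmol and 11 at 0.5 pmol. Tmem179, with the largest low-spike difference, was not called at either amount (-1.96 and -1.55, limma adjusted p = 0.182 and 0.202), and Nostrin had the same sign as in the low spikes at both (0.66 and 1.31, limma adjusted p = 0.627 and 0.186). At 0 pmol 0 of the 22 were called by limma, at 7.67% of features called.

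As a description over features outside the candidates, the mean of low-spike replicates 1-3 correlated with that of 0.025 pmol with r = 0.832, and with 0.15 and 0.2 pmol with 0.683 and 0.633. With replicates 4-6 at 0.25 and 0.5 pmol r was 0.709 and 0.564, above the 0.476 and 0.472 with replicates 1-3 at those amounts. The mean of low-spike replicates 4-6 correlated with those groups with r between 0.134 and 0.381, and with 0.75 pmol replicates 1-3 and 4-6 with 0.613 and 0.564. With 0 pmol replicates 1-3 and 4-6 its r was 0.352 and 0.465. For low-spike replicates 1-3 these values at 0 pmol were 0.279 and 0.328. The points of each correlation share their print layout and cell RNA. The 369 features outside the candidates called positive in the low spikes had a median of -1.15 at 0.025 pmol, -0.65 in 0.25 pmol replicates 4-6 and -1.03 in 0.5 pmol replicates 4-6, beside -0.19 and -0.41 in replicates 1-3 at the same amounts. What the numbers 1-3 and 4-6 stand for was not tested.

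**Figure D4:**
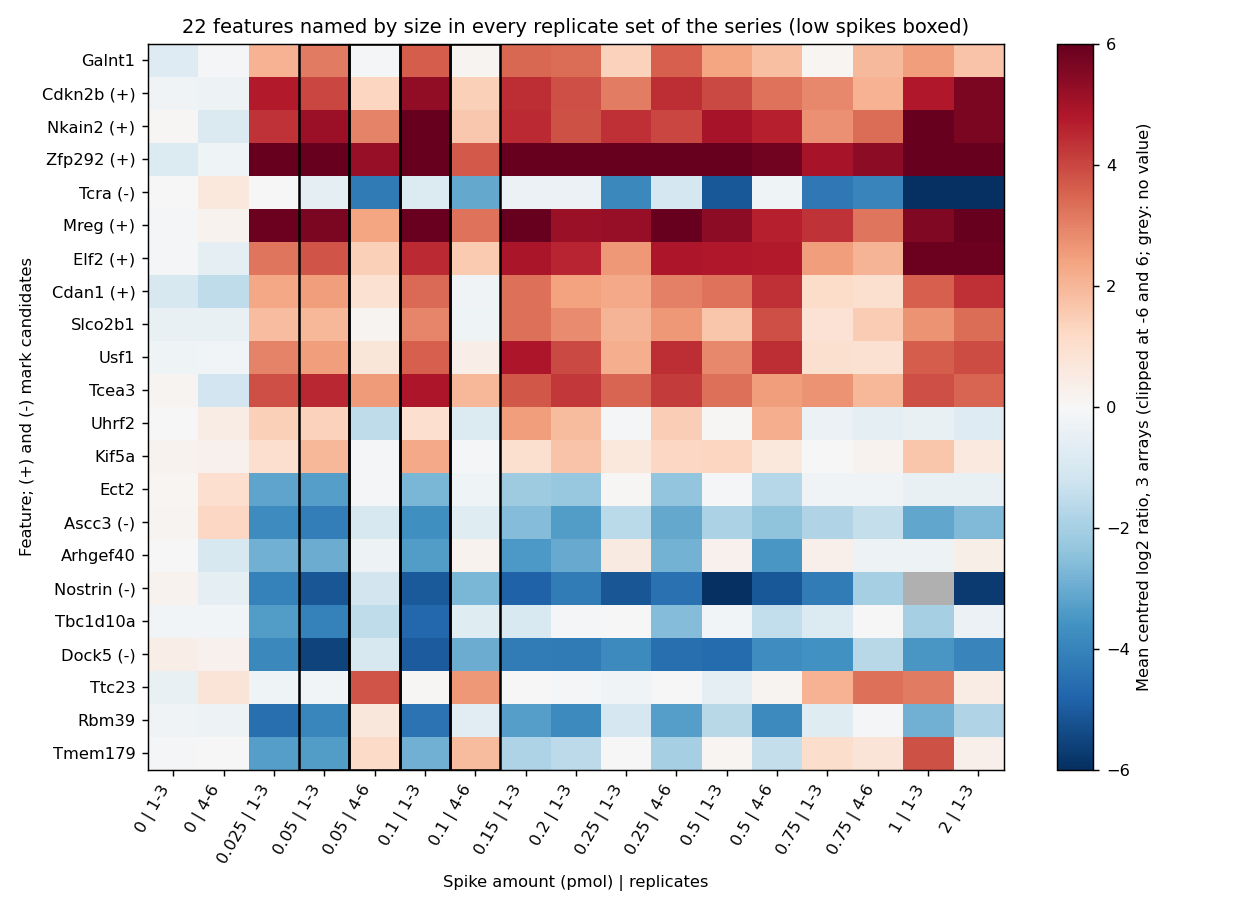
Each row is 1 of 22 features named by size and each column a replicate set at a spike amount; colour is the mean centred log2 ratio of 3 arrays, clipped at -6 and 6, and boxes mark the low spikes. Rows such as Arhgef40, Ect2 and Rbm39 are blue in low-spike replicates 1-3, at 0.025, 0.15 and 0.2 pmol and in replicates 4-6 at 0.25 and 0.5 pmol; Tcra is near white in those columns.

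The 10 lists of genes that fit a dividing, antibody-secreting cell or other cell types gave no list in which most members differed. Glycolysis had the highest median, 0.64, beside -0.07 over all features. Of its 10 features, 4 had a positive difference past the threshold and 0 a negative one, beside 5.36% and 5.78% of all features. The largest was that of Pfkp, a phosphofructokinase, at first spot 9524. It ran from -3.61 to -2.34 (median -2.75) in replicates 1-3 and from -0.61 to 0.56 (median 0.00) in replicates 4-6, a difference of 2.79 (SE 0.25, adjusted p = 9.97e-06). The other 3 features of Pfkp differed by -0.48, 0.48 and 0.79 (adjusted p 0.0617 or higher). The others called were Nagk, the N-acetylglucosamine kinase (2.09), Hk2 (1.77) and the muscle phosphofructokinase Pfkm (1.20). Nagk and both Hk2 features are candidates, so the list's count mixes candidates and other features. The list also counts Nagk, whose substrate is N-acetylglucosamine rather than a sugar of glycolysis. It was chosen with earlier results of these data known, so its count does not measure an enrichment.

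Of 32 features of DNA repair genes, 4 were called positive and 1 negative, beside 5.36% and 5.78% of all features, with a median of -0.07. They were Ino80, Trp53bp1, a damage-response scaffold and negative candidate (1.57, adjusted p = 0.00559), 1 of the 2 features of Fanca of the Fanconi core complex (1.07, the other -0.48), Brca2 (0.93) and, negative, the helicase Blm (-1.35, adjusted p = 0.0053). Of 16 cell-cycle features, 1 of Cdk6, a G1 kinase, was called alone (1.60, adjusted p = 0.000584), beside 11.1% of all features called. The list's median was -0.18. The other 2 features of Cdk6 had differences of the opposite sign, -0.70 and -0.61 (adjusted p = 0.0936 and 0.117). The called feature read -1.01 to -0.39 in replicates 1-3 and 0.11 to 1.73 in replicates 4-6, without overlap. Of 16 features of folding and secretion in the endoplasmic reticulum, 3 were called, beside 11.1% of all features. Sec61a1 of the translocon (1.11, adjusted p = 0.00496) and the vesicle coat gene Sec31a (0.80, adjusted p = 0.036) were called positive. Sel1l, of the degradation machinery, was called negative in 1 feature (-1.27, adjusted p = 0.00741) and differed by -0.25 in the other, and the median was -0.12. Of 9 features of B and plasma cells, the kinase Tec alone was called (1.10, adjusted p = 0.0394), beside 11.1% of all features. The list's median was 0.22. Tec is a negative candidate, and its ratios were -8.00 to -6.34 and -6.99 to -5.16.

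Of 11 features of T, NK and myeloid cells Tcra was called alone, beside 11.1% of all features, and the median was -0.06. Of 22 features of epithelial, stromal, muscle and nerve genes, 3 were called, beside 11.1% of all features. A feature of Stmn2 of growing neurites, a negative candidate, was called positive (1.03, adjusted p = 0.0429), while the other Stmn2 features differed by -0.03 and -0.04. Tnnt2, cardiac troponin T (-1.48, adjusted p = 0.0339), and the collagen Col5a1 (-1.34, adjusted p = 0.0379) were called negative, with a median of -0.15. A second feature of Col5a1 had a difference of the opposite sign, 1.49 (adjusted p = 0.175). Of 44 features of ubiquitin conjugation and removal, 3 were called each way, beside 11.1% of all features called in either direction, with a median of -0.05. The positive ones were Fem1c, a receptor of a ubiquitin ligase and a negative candidate (2.00), the conjugating enzyme Ube2d2a (1.48) and the deubiquitinase Otub1 (1.16). The negative ones were the deubiquitinases Usp15 (-1.37) and Usp3 (-0.91) and the ligase subunit Btrc (-1.16). Fem1c, Ube2d2a, Usp15, Usp3 and Btrc each had features that were not called, with differences of 1.10 for Fem1c, 0.08 for Ube2d2a, 0.01 for Usp15, 0.31 for Usp3 and -0.53 to 0.18 for Btrc. The 7 features of oxidative phosphorylation and the 6 of cytosolic ribosomal proteins had 0 calls by limma and medians of 0.04 and -0.08, with 1 feature each at an unadjusted p under 0.05.

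Among the features named by rule, 7 genes lost the call in some of the fits that left out a single array. Pfkm, Fanca, Brca2, Otub1, Usp3 and Btrc were not checked for this. Leaving out single arrays of the 12 lost the call of Tec in 10 cases, of Col5a1 in 10, of Usp15 in 9, of Stmn2 in 8, of Tnnt2 and Sec31a in 7 each and of Ube2d2a in 6. The highest adjusted p reached in this way was 0.102, for Stmn2 without 0.1 pmol replicate 1. Without centring, the differences of Sec31a, Stmn2, Tec and Sec61a1 were negative. The calls of all 22 features named by size held in each alternative in which the feature was tested.

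**Figure D5:**
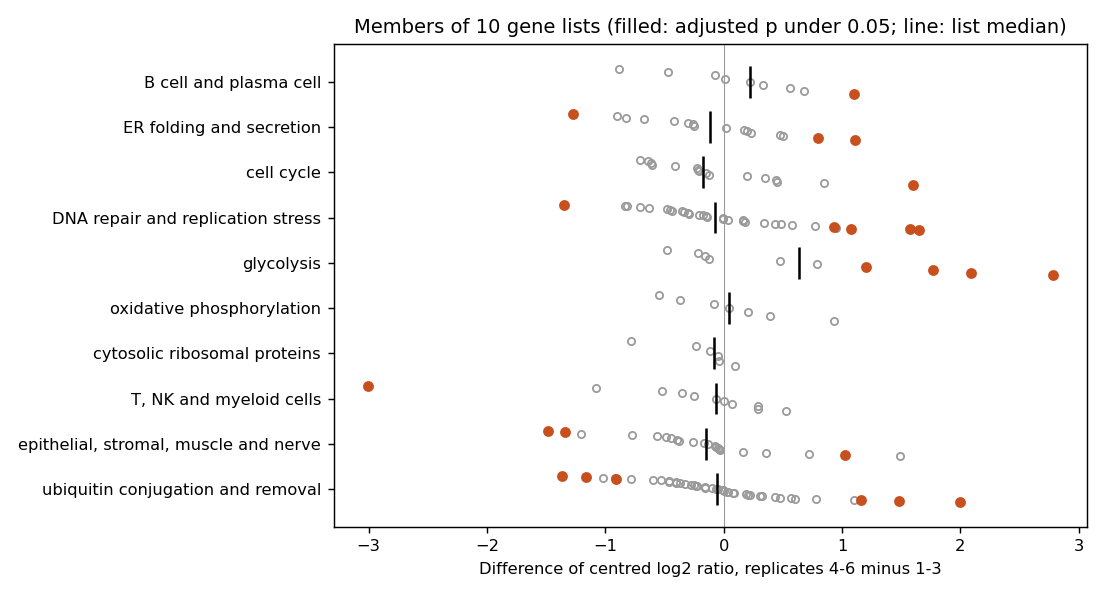
Each point is a feature of a gene list, placed by its difference in log2 units, replicates 4-6 minus 1-3; filled points have an adjusted p under 0.05 and the black line is the list's median. Glycolysis has the highest median, 0.64, and Tcra at -3.01 is the lowest point.

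Called features were found in every part of the print. The median difference of a block ran from -0.43 to 0.28 over the 48 blocks, and each block held from 5 to 33 called features, 3.05% to 20.1% of those tested in it. Outside the candidates, 50 of 300 features printed next to a negative candidate were called (16.7%), 36 of them positive. Next to a positive candidate 36 of 310 were called (11.6%), and with no candidate beside them 692 of 7082 (9.77%). Of the 14 features next to candidates of both signs, 6 were called (42.9%), 5 of them positive. These shares are descriptions, and carry-over between neighbouring spots was not tested.

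Gapdh and Pdia3 were printed once in each of the 48 blocks and were left out of the counts above. Gapdh, a glycolytic enzyme often used as a reference, had a median difference of -0.69, from a median of 0.16 in replicates 1-3 to -0.54 in replicates 4-6. Of its 48 features 10 were called, all negative, beside 5.78% of all features called negative. The calls of Gapdh and Pdia3 were adjusted over features and control probes together, and the 5.78% over features alone. The 48 are prints of 1 gene on the same arrays, so they do not count as separate genes. Pdia3, a disulfide isomerase of the endoplasmic reticulum, had a median difference of 0.10 and 0 of 48 called by limma. Without centring, the median over all features was itself -1.28, so both directions are relative to the array median.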

How the data were processed

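Per array, the authors deposited a log2 ratio for every spot, with no aligner, background or normalization step given in the sources used here. The log base was read from the values. A value of 16.61 or more is an upper limit and was taken as missing. The 51 arrays were grouped by amount and replicate number from the titles. The 16896 spots form 48 print blocks, and each probe's 2 spots, 22 positions apart, were averaged into 8448 probes. Of these, 528 at 11 control positions were left out, leaving 7920 features, of which 7906 had 2 measured arrays in every amount and set. Symbols came from the platform annotation, updated with the RefSeq genes of GRCm38.p6 (10766 spots matched; 5348 features had 1 symbol). Features with none are named by their first spot.

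The median over features was subtracted from each array. The linear models, in limma 3.58.1 under R 4.3.3, had terms for set and amount, with 1 mean per amount and set for the separate amounts, the interaction and the means against 0. Benjamini-Hochberg adjusted p under 0.05, over all features, was the threshold. Array measures were compared with exact two-sided permutations within amounts. The number of arrays limits the precision. Apart from the one with array weights, each fit took a single spread per feature for both sets. The fits were tested on data simulated with such a shared spread, so that test does not cover the unequal spread of the sets. Figures used matplotlib 3.10.9.

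Named genes were, by rule, the 8 largest differences each way with the same sign at both amounts, the 6 largest each way outside the candidates, 2 without a symbol each way, the 4 candidates of each sign nearest 0, and up to 3 called members per list. Pfkm, Fanca, Brca2, Otub1, Usp3 and Btrc were also named, after their values were seen, to complete small counts. Members and lists were chosen with earlier results of these data known. Alternatives changed the centring, scaling, spots, filter, model and arrays.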

Additional observations from a re-analysis of the deposited data

Results flagged for a closer look

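The array with the most missing spots, 0.1 pmol replicate 4, lacked 9.29% of them and stood apart from the other 5 arrays of its amount. Tnnt2 read -2.56 on the same array, below the other 5 arrays at 0.1 pmol. These were 2 of 120 groups of 6 arrays examined in this way, and chance alone sets about 1 in 20 groups apart.

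The low-spike difference between the replicate sets differed from that at 0 pmol in 931 features and from the mean of 0.25, 0.5 and 0.75 pmol in 1485, each by the limma contrast of the differences themselves.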

How the results depend on the processing

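The count of features that differed between the sets was 6868 without centring, 1558 with arrays scaled to one spread, 508 and 439 from the first or second spot of each pair alone, 1669 in the fit of 36 arrays, and 510 to 1011 with single arrays left out. In the other alternatives it stayed within 1.5 times of 881. The interaction gave 567 calls without centring, 1 from the first spots, 3 with the upper limit kept, 53 with control probes kept, 160 in the fit of 36 arrays and 0 to 2 with single arrays left out. At 0.05 pmol the count was 6803 without centring, 1227 in the fit of 36 arrays, 84 from the 6 arrays of that amount alone and 115 to 676 with single arrays left out. At 0.1 pmol it was 3420 without centring, 1080 scaled, 878 in the fit of 36 arrays and 172 to 820 with single arrays left out. Array weights, added after the data were seen, gave 252 calls between the amounts, and leaving out arrays gave 0. Candidates called nearer 0 in replicates 4-6 numbered 151 scaled, 43 with 50 candidates each way, 131 with 200 and 73 to 106 with single arrays left out. At the other amounts, dropping the centring gave 4942 (0 pmol), 7168 (0.25 pmol), 1342 (0.5 pmol) and 803 (0.75 pmol) calls and 7161 for the low spikes minus 0 pmol, and scaling gave 255 at 0.25 pmol and 957 at 0.5 pmol. Without centring the differences of Sec31a, Stmn2, Tec and Sec61a1 were -0.41, -0.18, -0.11 and -0.10. The cause of these changes was not tested.

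With single arrays left out, the difference in missing spots ran from 1.29 to 3.23 percentage points. Each other array measure kept its direction and an exact permutation p under 0.05 in every alternative run for it. Of 1316 values of named features in alternatives, 1225 kept their direction and side of the threshold, 82 lost the call, 5 gained it and 4 reversed.

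Replicates 1-3 and 4-6 share no number, so no array of one set pairs with an array of the other. With arrays of the same number at the 2 amounts as a replicate block, 1131 features differed, with a consensus correlation of -0.097. The deviations of same-numbered arrays correlated between -0.094 and 0.160, so the numbers are not shown to pair arrays. The block changed no count by over 1.5 times.

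Signals over background were not analysed here, so dim spots could not be told from bright ones.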

Other observations

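The control positions, which are in none of the counts above, differed between the sets more often than the features did. Of 513 control probes tested, 232 were called (45.2%), 190 positive and 42 negative, beside 11.1% of all features called. The control calls were adjusted over features and control probes together, and the 11.1% over features alone. The 513 are repeated prints of 11 control positions on the same arrays, so they do not count as separate members. The unnamed control at block position 22 had a median of -5.65 in replicates 1-3 and -0.32 in replicates 4-6, with 33 of 35 probes called positive. At block position 66 the medians were -2.40 and 0.01, with 46 of 48 called positive. At block position 309 the medians were 4.21 and 1.75, and 27 of 48 were called negative.

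The array weights that limma estimated from the 12 arrays were between 0.608 and 9.70 in replicates 1-3 and between 0.177 and 0.728 in replicates 4-6. The array at 0.1 pmol replicate 1 had the highest weight and that at 0.05 pmol replicate 6 the lowest.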
